A study of Homo sapiens with 4 samples.

Results

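Long noncoding RNA (lncRNA) genes that stand apart from protein-coding genes were examined for macroH2A1 in IMR90 cells, a line of human fetal lung fibroblasts. The 4590 genes described here are autosomal, are annotated as lncRNA, span 5 kb or more and lie at least 5 kb from every protein-coding gene, with 50% or more of the span in sequence that both ChIP replicates assayed. Of 18372 autosomal lncRNA genes in GENCODE release 44 mapped to hg19, 9925 spanned 5 kb or more, 4771 of these met the distance, and 181 of those were left out for too few assayed bases, 34 of them with none. They are compared with 16290 protein-coding genes and 5075 other lncRNA genes of 5 kb or more, so that 25955 genes were measured in all. The selection rule uses no macroH2A1 value. A symbol was given for 1776 of them, and 2814 carry an ENSG identifier only.

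The study holds 4 samples, all from IMR90 cultures, with no treatment named in the labels. There were 2 macroH2A1 ChIP samples, immunoprecipitated from formaldehyde-fixed and sonicated chromatin with an antibody against macroH2A1, and 2 input samples of the same kind of chromatin without precipitation. The series design calls the ChIP samples biological replicates. Each ChIP replicate has a deposited genome segmentation in which every segment carries 1 log2 ratio of ChIP over input and 1 significance value; the inputs enter only through that ratio. RNA was not measured in this series, so neither the activity of these genes nor the fibroblast label could be checked against marker transcripts.

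MacroH2A1 is a variant of histone H2A whose tail end carries a large macro domain. It is classically known for its concentration on the inactive X chromosome and for broad domains on autosomes, and it is most often associated with genes that are not transcribed, although active genes inside such domains have been described. LncRNAs are transcripts with little or no coding capacity, and those far from coding genes are often expressed in few cell types and from weak promoters. A small number of them, such as MALAT1 and NEAT1, are abundant in most cells, and others are the long precursors from which microRNAs are cut.

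The sequence around the annotated start illustrates how different these genes are. For 6 of the genes named below the sequence is shown from 250 bases before to 50 bases after the start, read from the GRCh37 (hg19) reference in the direction of transcription, with CG dinucleotides in capitals because depleted starts were more frequent among CG-rich starts. MIR3142HG (chr5:159865351-159865650, plus strand) and MIR2117HG (chr17:41521825-41522124, plus strand) had the highest values among the genes of the lists described below, and these stretches hold 5 and 2 CG. MIRLET7BHG (chr22:46449499-46449798, plus strand) and MALAT1 (chr11:65264861-65265160, plus strand) had the lowest, and hold 22 and 34 CG. RP9P (chr7:32982739-32983038, minus strand) and MIR9-1HG (chr1:156426506-156426805, minus strand) had the largest differences of the start above and below the span, with 22 and 23 CG.
MIR3142HG: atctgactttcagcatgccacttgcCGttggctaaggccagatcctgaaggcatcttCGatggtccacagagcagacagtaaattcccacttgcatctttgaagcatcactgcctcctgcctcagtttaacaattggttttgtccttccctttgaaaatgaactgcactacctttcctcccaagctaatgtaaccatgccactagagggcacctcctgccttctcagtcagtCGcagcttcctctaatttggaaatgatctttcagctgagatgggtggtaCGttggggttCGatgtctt
MIR2117HG: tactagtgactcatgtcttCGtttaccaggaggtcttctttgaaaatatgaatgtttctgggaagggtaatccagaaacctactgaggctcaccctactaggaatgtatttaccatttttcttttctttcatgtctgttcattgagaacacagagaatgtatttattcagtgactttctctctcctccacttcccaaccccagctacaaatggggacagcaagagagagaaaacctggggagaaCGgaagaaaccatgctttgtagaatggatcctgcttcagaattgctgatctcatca
MIRLET7BHG: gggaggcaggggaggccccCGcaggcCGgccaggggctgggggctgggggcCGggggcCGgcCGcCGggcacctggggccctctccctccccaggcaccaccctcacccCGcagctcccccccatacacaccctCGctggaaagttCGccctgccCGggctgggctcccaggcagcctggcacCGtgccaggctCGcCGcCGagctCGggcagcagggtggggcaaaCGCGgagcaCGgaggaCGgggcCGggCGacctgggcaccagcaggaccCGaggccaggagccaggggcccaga
MALAT1: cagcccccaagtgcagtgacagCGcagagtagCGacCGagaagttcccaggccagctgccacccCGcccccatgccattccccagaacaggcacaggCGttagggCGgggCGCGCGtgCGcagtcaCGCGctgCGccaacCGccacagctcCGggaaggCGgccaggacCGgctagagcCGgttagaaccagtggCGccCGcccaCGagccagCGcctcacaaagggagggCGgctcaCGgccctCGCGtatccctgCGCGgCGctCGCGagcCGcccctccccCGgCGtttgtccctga
RP9P: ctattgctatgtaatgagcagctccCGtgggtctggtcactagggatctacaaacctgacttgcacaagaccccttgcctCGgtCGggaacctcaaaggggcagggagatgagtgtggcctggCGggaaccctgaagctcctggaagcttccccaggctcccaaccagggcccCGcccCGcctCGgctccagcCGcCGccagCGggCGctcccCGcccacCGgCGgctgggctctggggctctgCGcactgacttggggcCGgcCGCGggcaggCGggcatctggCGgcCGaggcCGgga
MIR9-1HG: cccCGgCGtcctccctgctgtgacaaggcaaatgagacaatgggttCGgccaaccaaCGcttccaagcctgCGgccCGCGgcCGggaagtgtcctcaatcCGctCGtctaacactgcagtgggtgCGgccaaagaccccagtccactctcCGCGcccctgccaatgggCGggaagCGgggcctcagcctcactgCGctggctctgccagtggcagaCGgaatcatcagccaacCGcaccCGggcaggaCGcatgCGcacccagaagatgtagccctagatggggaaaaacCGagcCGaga

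MacroH2A1 was higher over intergenic lncRNA genes than over protein-coding genes in both replicates. The median log2 ratio of ChIP over input, averaged over the assayed bases of each gene, was 0.07 in replicate 1 and 0.06 in replicate 2 for intergenic lncRNA genes, -0.29 and -0.27 for other lncRNA genes, and -1.03 and -0.91 for protein-coding genes. The median of the 2-replicate mean was 1.06 higher than in protein-coding genes, with a difference of 1.10 in replicate 1 and 0.97 in replicate 2 (SD 0.09, n = 2). The SD between the 2 replicate medians was 0.00386 for intergenic lncRNA genes and 0.0848 for protein-coding genes, both smaller than the difference. For a single intergenic lncRNA gene the median SD between replicates was 0.12. An exact two-sided permutation test over 2 pairs cannot go below p = 0.5, so no p-values are given, and genes are not replicates.

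A gene was called enriched where 50% or more of its assayed bases lay, in both replicates, in segments with a log2 ratio above 0 and a −log10 p of at least 2. By this rule 1950 intergenic lncRNA genes (42.5%) were called, against 1557 other lncRNA genes (30.7%), 2744 protein-coding genes (16.8%) and 24.1% of all measured genes. The share depends on the threshold: it was 15.7% of intergenic lncRNA genes when only the stronger 50% of enriched segments counted, those with log2 ratios of at least 0.82 in replicate 1 and 0.86 in replicate 2. The log2 ratio over the span was above 0 in both replicates for 2207 intergenic lncRNA genes (48.1%), against 20.0% of protein-coding genes and 28% of all genes. It was below 0 in both for 2014 (43.9%), against 73.0% of protein-coding genes and 64.4% of all genes. For 369 (8.04%) the replicates had opposite signs.

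Coverage was close to all or none. Of the intergenic lncRNA genes 1675 (36.5%) were covered by enriched segments over all assayed bases in both replicates, and 2377 (51.8%) had no such base. Among protein-coding genes 8.92% were covered in full and 70.2% had no such base, and among all measured genes 15.1% and 64.7%. Part of this form is by construction: 67.7% of these genes lay within 1 segment in replicate 1 and 79.0% in replicate 2, so each gene then has the value of 1 stretch that usually extends past it. The 4590 genes touched 5158 segments in replicate 1 and 3552 in replicate 2, and 1369 of the genes overlap another of them, so neighbouring genes often share a value.

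The distribution had a sharp mode below input and a broad shoulder above it. Between -0.7 and -0.6 lay 10.4% of intergenic lncRNA genes, the fullest bin, against 3.55% of protein-coding genes and 15.8% of 20-kb windows of intergenic sequence outside all lncRNA genes. From -1 to -0.4 lay 32.8%, and 25.3% lay from 0.4 to 1. A mean log2 ratio above 1 was found in 640 intergenic lncRNA genes (13.9%), in 2.40% of protein-coding genes and in 5.11% of all genes. What separates them most from protein-coding genes is the near absence of strong depletion: a mean below -1 was found in 112 (2.44%), against 49.6% of protein-coding genes and 36.4% of all genes. The surrounding sequence had this feature too, with 0.589% of 39402 intergenic windows below -1. The windows had median log2 ratios of -0.14 and -0.24 and 34.9% were called.

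**Figure D1:**
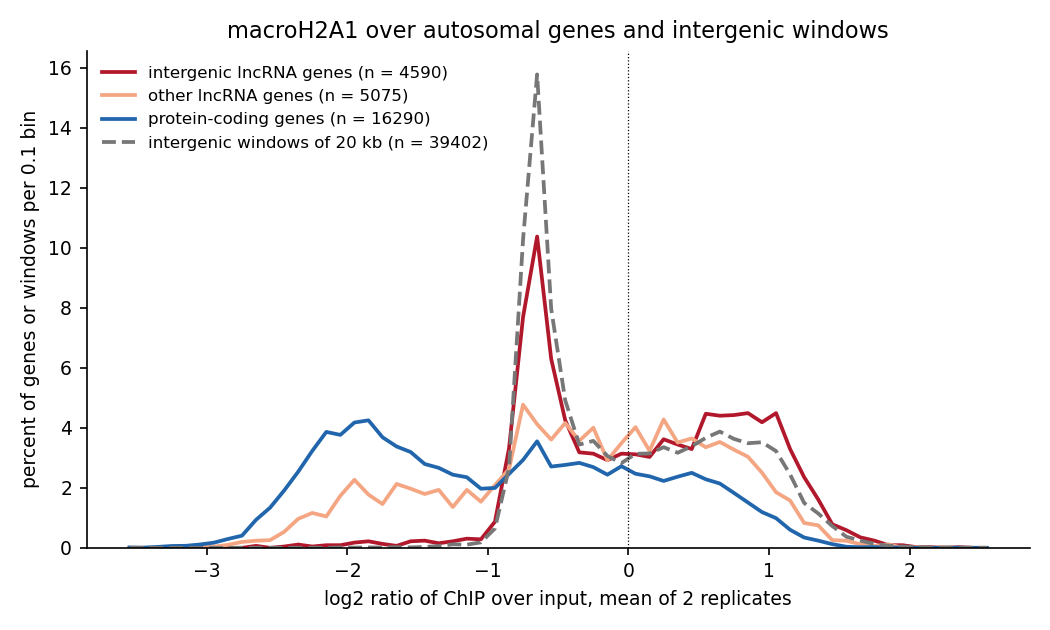
Share of genes or windows (percent per bin of 0.1) against the log2 ratio of ChIP over input, averaged over 2 replicates, for intergenic lncRNA genes, other lncRNA genes, protein-coding genes and intergenic windows of 20 kb. Intergenic lncRNA genes follow the windows, with a mode between -0.7 and -0.6 and a shoulder up to about 1, and lack the broad mass below -1 that holds 49.6% of protein-coding genes.

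The replicates ranked the intergenic lncRNA genes alike, with Pearson's r at 0.92 and Spearman's rho at 0.92 across 4590 genes. Both are correlations over genes that share segments and libraries, and are given as a description. The genes just inside and just outside the limits of the selection had the following medians in the 2 replicates. Genes of 5 to 6 kb (292) had medians of 0.12 and 0.18, and those of 4 to 5 kb, left out, had 0.21 and 0.29 (317). Genes at 5 to 10 kb from a coding gene (347) had 0.31 and 0.30, and those at 1 to 5 kb, left out, had 0.27 and 0.26 (389). Genes with 50 to 70% of the span assayed (61) had -0.49 and -0.45, against -0.36 and -0.43 at 30 to 50% (46).

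The higher level over intergenic lncRNA genes was found on every autosome. Their median lay above that of protein-coding genes in both replicates on 22 of 22 autosomes, by 0.58 on chromosome 18 at the least and 1.79 on chromosome 17 at the most. Chromosome 17 had medians of 0.41 and 0.53 over 142 intergenic lncRNA genes, against -1.33 and -1.14 over 960 protein-coding genes, and 53.5% of the intergenic lncRNA genes were called. Chromosome 6 was close, with 53.2% of 263 called. Chromosome 19 had the lowest share, 18.6% of 86, against 16.1% of its protein-coding genes. Its medians were -0.62 and -0.39, against -1.44 and -1.31. Chromosomes 21 (27.9%), 7 (29.5%) and 16 (30.6%) followed.

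**Figure D2:**
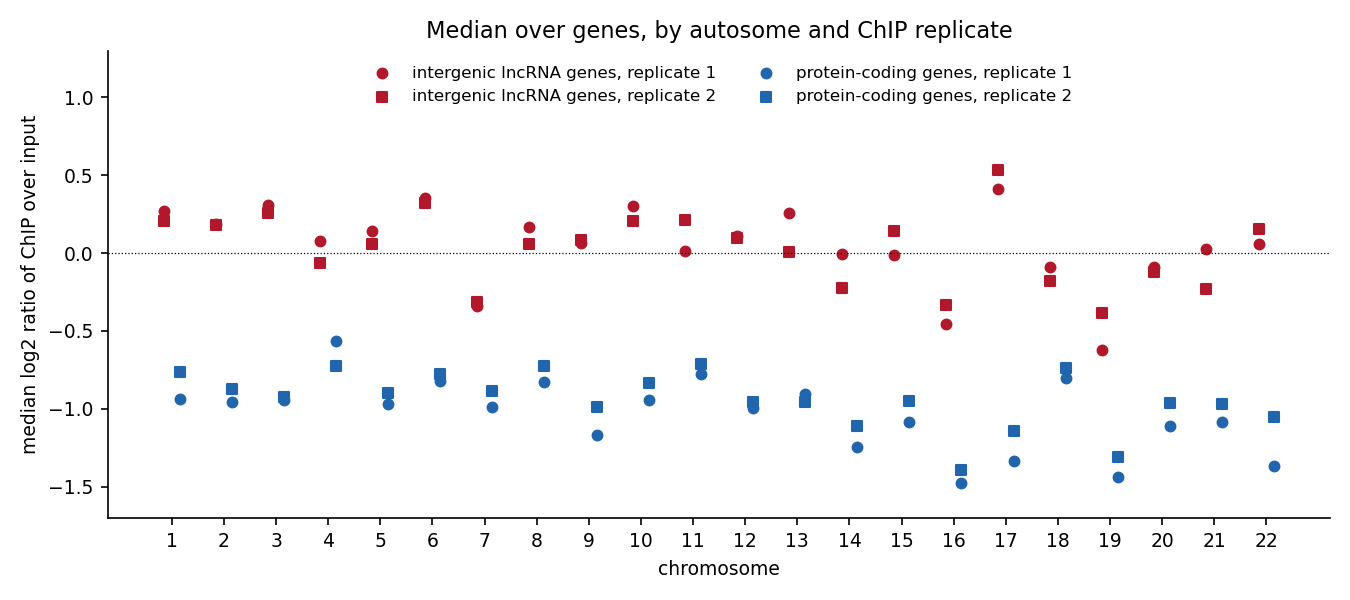
Median log2 ratio of ChIP over input per autosome, with intergenic lncRNA genes left of protein-coding genes, circles for replicate 1 and squares for replicate 2. The intergenic lncRNA genes lie above the protein-coding genes on 22 of 22 autosomes, with the widest separation on chromosome 17 (1.79).

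Genes in gene deserts had less macroH2A1 than those near coding genes. Of intergenic lncRNA genes 5 to 20 kb from the nearest protein-coding gene, 51.1% of 814 were called. The shares were 51.9% at 20 to 50 kb, 50.5% at 50 to 100 kb, 40.8% at 100 to 200 kb, 34.1% at 200 to 500 kb and 18.3% of 535 at 500 kb or more. The medians were 0.31 and 0.34 in the nearest class and -0.51 and -0.62 in the farthest. The intergenic windows at the same distances, a comparison chosen after the values were seen, were called in 52.96%, 50.4%, 42.4%, 34.1%, 23.04% and 14.5%. The lncRNA genes were thus called about as often as the windows up to 50 kb and more often in each class beyond. Where the gap between neighbouring coding genes was under 100 kb, 55.2% of 560 genes were called, and where it was 1 Mb or more, 26.1% of 1489.

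Base composition and length moved with distance, and their part in the result was not tested. The median GC content of the span was 43.7% at 5 to 20 kb and 36.04% at 500 kb or more, and the median span was 17.2 and 37.3 kb. Within genes of 42% GC or more, the called share was 56.5% at 5 to 50 kb, 53.2% at 50 to 200 kb, 35.7% at 200 to 500 kb and 14.3% of 56 genes at 500 kb or more. Below 38% GC it was 34.9%, 36.7%, 30.1% and 17.6%. The called share was higher at higher GC, with 21.4% of 664 genes under 36% GC and 56.1% of 380 at 50% or more, against 8.93% and 22.6% of protein-coding genes in the same classes. Pearson's r between GC and the log2 ratio over genes was 0.11 in replicate 1 and 0.30 in replicate 2, so the replicates differed in this relation.

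Short genes were covered more often than long ones. The called share was 47.4% of 2055 genes of 5 to 20 kb, 41.7% at 20 to 50 kb, 38.2% at 50 to 100 kb and 33.6% of 729 at 100 kb or more. Protein-coding genes of the same span classes were called in 18.5%, 17.1%, 17.2% and 13.8%. The difference in median from protein-coding genes was 1.35 at 5 to 20 kb and 0.44 at 100 kb or more. The protein-coding medians in these 2 classes were -1.10 and -0.68. The called share was higher than in protein-coding genes in each span class. Longer genes average over more segments.

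The annotation itself separated the genes only modestly. The 1437 genes named LINC with a number had medians of 0.20 and 0.18 and 46.2% were called, and the 2814 with an ENSG identifier only had 0.03 and 0.03 and 41.4% called. Of 15 genes with an antisense (-AS) symbol 11 were called. The 282 genes with other symbols, such as MALAT1 and H19, had medians of -0.13 and -0.14, 33.7% called and 9.57% with a mean below -1. The 33 genes whose annotated exons merge into 1 had the lowest called share by exon number, 24.2%, and 21.2% of them had a mean below -1, MALAT1, NEAT1 and NORAD among them. Genes with 2 exons were called in 45.5% of 804 cases, and those with 10 or more exons in 33.8% of 603.

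**Figure D3:**
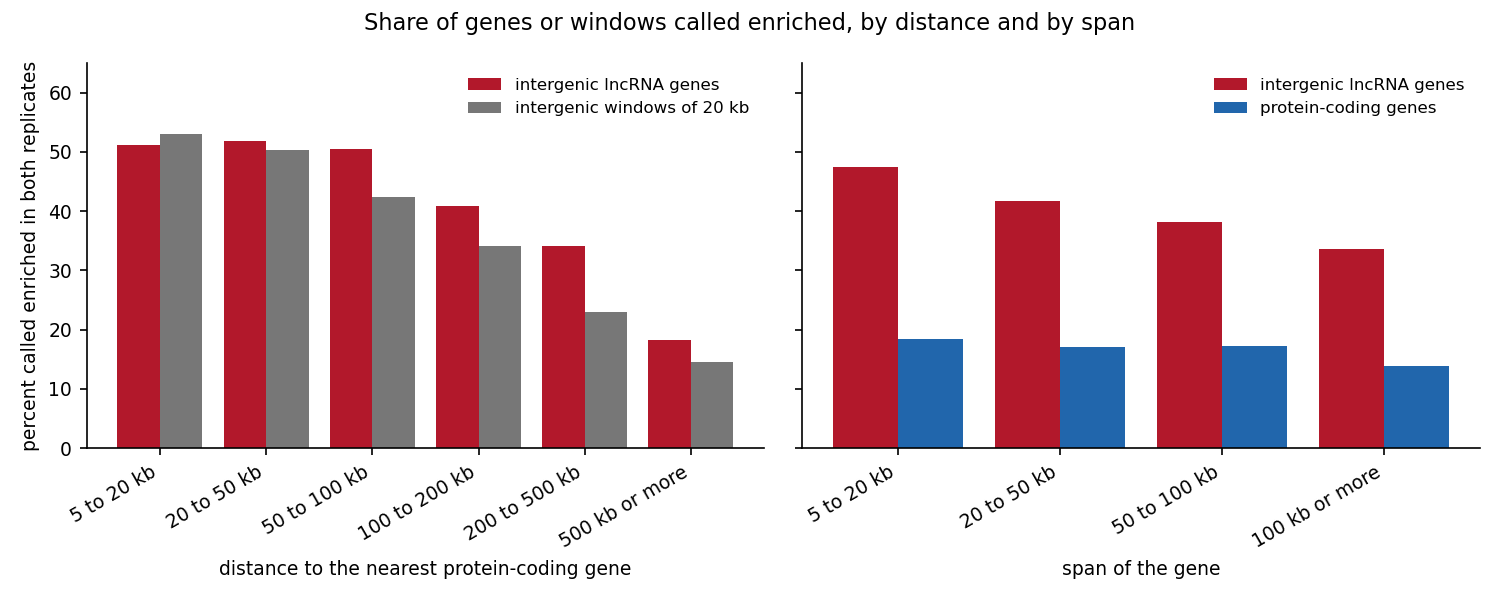
Percent of genes or windows called enriched in both replicates, by distance to the nearest protein-coding gene (left; intergenic lncRNA genes and 20-kb windows) and by span (right; intergenic lncRNA genes and protein-coding genes). The bars of intergenic lncRNA genes stay near 50% up to 100 kb and reach 18.3% at 500 kb or more, and they exceed those of protein-coding genes in each span class.

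The nearest coding gene was usually lower. Of 4497 intergenic lncRNA genes whose nearest protein-coding gene was measured, 2813 (62.6%) lay above that gene in both replicates and 912 (20.3%) below it in both. Where the neighbour was itself called (594), 75.6% of the lncRNA genes were called, against 37.8% of those whose neighbour was not (3903). Across genes the values of the pair had a Pearson r of 0.07 in replicate 1 and 0.10 in replicate 2, and 0.20 for the 801 pairs at 5 to 20 kb. Relative to flanks of equal length on either side, 68 of 4005 genes lay above by more than 0.5 in both replicates and 64 lay below, so nearly all had the level of their surroundings at the resolution of the segments. The median difference of exons from the span was 0 in both replicates. It is 0 by construction in a gene within 1 segment, as 67.7% and 79.0% were. Whether exons stand apart from the span therefore cannot be told.

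The start sites had the level of the gene body. Of 4504 genes with an assayed start, the median log2 ratio at the start was 0.08 in both replicates, and the start equalled the span mean within 0.01 in 68.3% and 79.2%, mostly because both lie in the same segment. The start was higher than the span by over 0.25 in both replicates in 157 genes (3.49%), against 10.9% of protein-coding genes and 6.83% of other lncRNA genes. It was lower in 186 (4.13%), against 10.5% of protein-coding genes and 18.9% of other lncRNA genes. A start can differ from its span only in a gene of more than 1 segment. Intergenic lncRNA genes lay within 1 segment in 67.7% and 79.0% of cases. The shares were 44.4% and 59.1% for protein-coding genes and 48.7% and 61.5% for other lncRNA genes. The comparison was not adjusted for this.

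Depleted starts were more frequent among CG-rich starts. In the 300 bases around the start, intergenic lncRNA genes had a median of 3 CG dinucleotides and protein-coding genes 20. Of the 291 intergenic lncRNA genes with 21 or more CG and an assayed start, 15.1% had a start below -1 in both replicates, against 2.23% of those with 6 to 20 and 1.13% of those with fewer than 6. Protein-coding genes of the same classes had 59.8%, 43.0% and 15.4%, each higher than in the lncRNA genes; CG content was not matched within a class. Of the 112 intergenic lncRNA genes with a mean below -1, 44 (39.3%) had 21 or more CG at the start, against 6.99% of all 4590 and 4.06% of the 640 genes above 1. The genes below -1 lay closer to a coding gene, at a median of 28.6 kb against 86.0 kb for all, and their median span of 21.5 kb was near the 23.8 kb of all.

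A set of 3 motifs was searched on both strands of the same 300 bases. GGGCGG, the GC box bound by Sp1 and related factors, was found in 13.2% of intergenic lncRNA genes, 54.6% of protein-coding genes and 42.7% of all measured genes. TATAAA was found in 19.4%, 9.10% and 11.8%, and TGANTCA, the AP-1 motif, in 12.5%, 6.25% and 8.01%. None of the motifs holds another within it. The median start value of intergenic lncRNA genes with GGGCGG was -0.15 and 0.02, against 0.10 and 0.09 without it. With TATAAA it was 0.02 and -0.05, against 0.09 and 0.12 without it. With TGANTCA it was 0.09 and 0.11, against 0.07 and 0.07 without it. These matches describe letters in the reference and not binding.

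The listed widely expressed lncRNAs that met the selection all lay below input. Of 14 listed symbols of widely expressed lncRNAs, 5 met the selection, and all 5 had log2 ratios below 0 in both replicates and a mean below -1, where 2.44% of all intergenic lncRNA genes lie. Another 5 of the 14, among them GAS5, MIR22HG and DANCR, lie under 5 kb from a protein-coding gene and were not eligible. MALAT1, a nuclear speckle RNA, had -2.57 in replicate 1 and -2.75 in replicate 2 (mean -2.66 ± 0.13, SD, n = 2). NEAT1, the scaffold of paraspeckles, had -2.77 and -2.16 (-2.47 ± 0.43). CYTOR had -1.77 and -1.79, with only 59.0% of its span assayed; it has a near-identical copy on the same chromosome (MIR4435-2HG), so reads of the pair may be exchanged. PVT1, which neighbours MYC, had -1.18 and -0.83 over 393 kb. Its span was mixed, with 1.59 and 1.92 at its end and 18.0% of its assayed bases enriched in both replicates. NORAD, which binds Pumilio proteins, had -2.29 and -0.59, and its 2 values differ by more than most.

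The segment that holds MALAT1 was close to the bounds of the gene in both replicates, but depleted segments also lay nearby. MALAT1 spans 10.4 kb (chr11:65265111-65275544, plus strand), and the segment that holds it was 11.9 kb long in replicate 1 (chr11:65263854-65275744) and 12.02 kb in replicate 2 (chr11:65264512-65276535). The next segment downstream, of 15.9 kb in both replicates, had 1.02 and 1.03. At 28 kb past the start the values were -2.79 and -2.35. The next segment upstream had 0.78 over 2.14 kb in replicate 1 and -0.24 over 48.0 kb in replicate 2. At 4 kb before the start replicate 1 had -1.58. TALAM1, the antisense transcript of MALAT1, lies in the same segment and so has the same values, and the 2 genes cannot be told apart. Over the NEAT1 span (chr11:65190245-65213011) the segment was 29.2 kb in replicate 1 and 62.9 kb in replicate 2, and the values 30 kb past the start were -0.24 in both. The difference of MALAT1 from flanks of equal length was -2.53 in replicate 1 and -2.90 in replicate 2 on the log2 scale, on average the most negative among those of the 4005 genes with measured flanks whose replicates had the same sign.

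MicroRNA precursors ranged over almost the whole scale. Of 78 microRNA host symbols, 38 met the selection. Their median was -0.20 and -0.15, 13 (34.2%) were called, and 6 had a mean below -1, against 42.5% and 2.44% of all intergenic lncRNA genes. The highest was MIR3142HG, the host of miR-146a, which restrains inflammatory signalling, with 1.16 and 1.40 (1.28 ± 0.17). MIR2117HG followed with 1.04 and 1.27. Hosts of microRNAs known from other tissues, picked after their values were seen, lay on both sides of 0. MIR122HG, the precursor of the liver microRNA miR-122, had 0.50 and 0.80, and MIR1-1HG, of the muscle microRNA miR-1, had 0.31 and 0.92. Of the neuronal miR-124 hosts, MIR124-1HG had -0.19 and -0.09 and MIR124-2HG had -0.71 and -0.73.

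The microRNA hosts with a MIRLET7 symbol were at the other end. Hosts of let-7 under other symbols were not grouped with them, so these values do not describe let-7 hosts as a set. Let-7 microRNAs are widespread in differentiated cells and restrain growth. MIRLET7BHG had -2.68 and -2.60 (-2.64 ± 0.06), MIRLET7A1HG -1.78 and -1.86, and MIRLET7DHG -1.60 and -1.86. MIRLET7A1HG and MIRLET7DHG overlap and are 1 locus. MIR155HG, the host of the inflammatory microRNA miR-155, had -1.22 and -1.65, MIR193BHG had -1.47 and -1.33, and MIR34AHG, the host of the p53 target miR-34a, had -1.23 in both. These 6 hosts are all the listed ones below -1. The start of MIR34AHG differed from its span, at -0.11 and 0.53, and its 2 replicates had opposite signs there. Of the p53, senescence and mesenchyme list only MIR34AHG and PURPL, 2 of 16 symbols, met the selection; PURPL, a p53-induced RNA, had 0.13 and -0.14.

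Small nucleolar RNA hosts are mostly housekeeping genes that lie close to coding genes or are short, and 3 of 28 met the selection. SNHG17 had -2.41 and -2.29, SNHG26 had -1.48 and -1.18, and SNHG27 had 0.36 and -0.26, so none was called.

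Imprinted lncRNAs were not depleted. H19, a growth-restraining RNA made from the maternal copy, had 0.63 and 0.41 (0.52 ± 0.15). MEG3, also made from the maternal copy, had 0.31 and 0.44 (0.38 ± 0.09), and both were called. The 2 alleles are averaged in these values. MEG3 was split: its start had 0.72 and 1.10, while 60 kb further on the values were -0.43 and -0.29. MEG9, downstream of it, had -0.21 and 0.57. Only these 3 of the 12 listed imprinted lncRNAs met the selection.

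**Figure D4:**
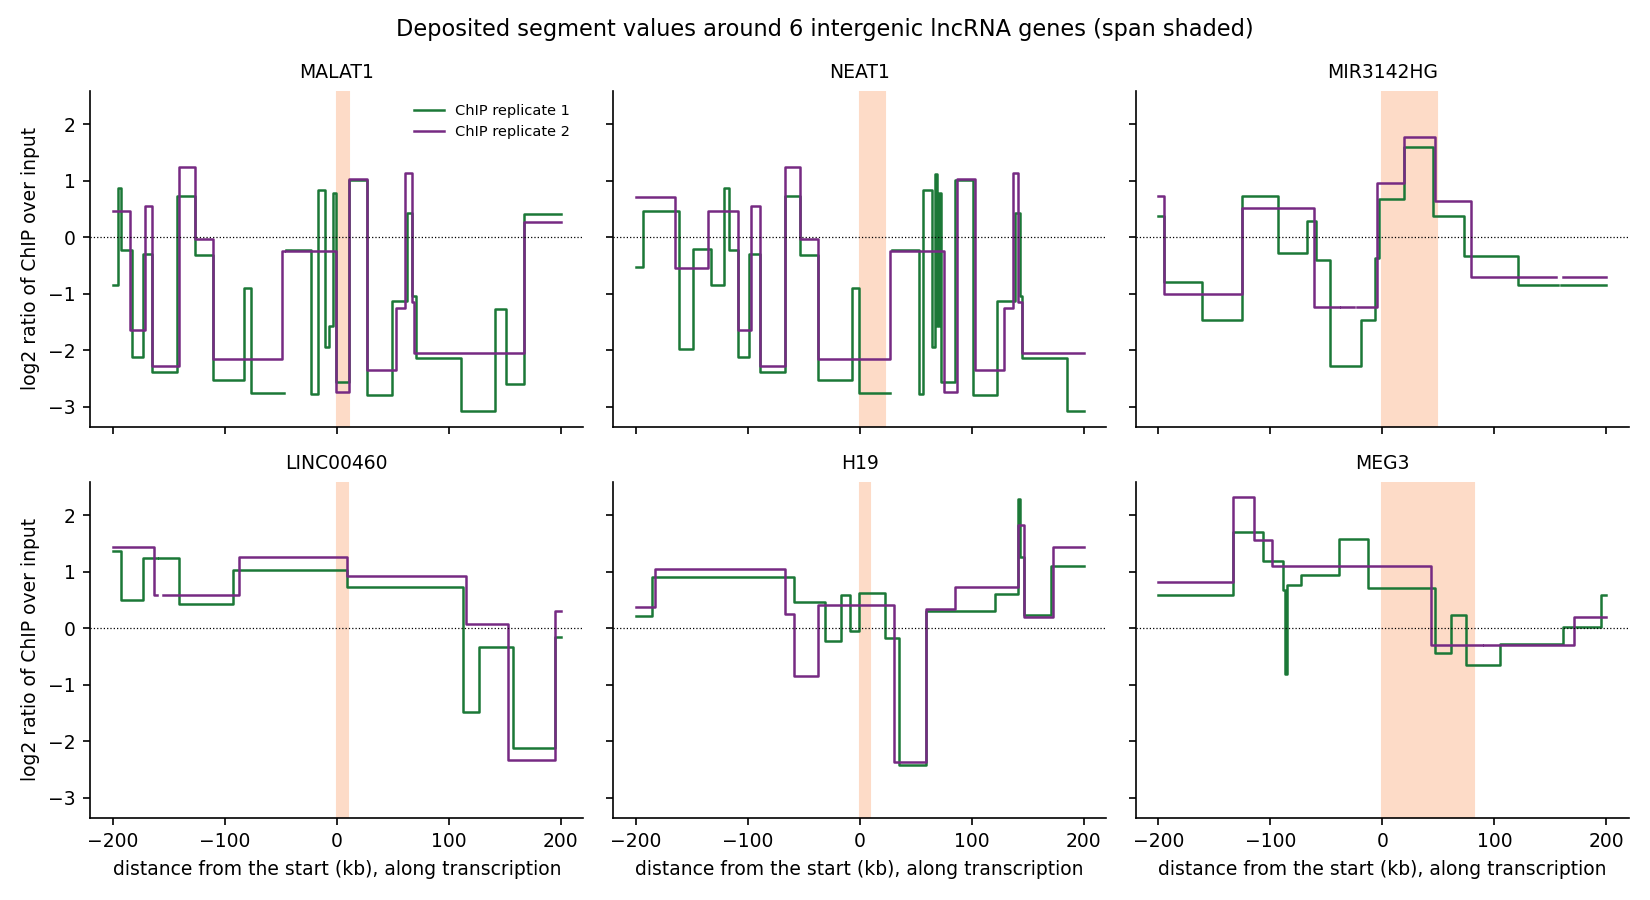
Deposited log2 ratio of ChIP over input in each replicate, read every 2 kb from 200 kb before to 200 kb after the start of 6 intergenic lncRNA genes, with the span shaded. MALAT1 and NEAT1 sit in segments below -2 in both replicates, MIR3142HG has its highest segment inside the gene (1.59 and 1.77), LINC00460 lies in a broad segment of 1.04 and 1.27, and MEG3 changes sign within its span.

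Immune lncRNAs lay on both sides of 0. Of 14 listed, 5 met the selection and 3 were called, against 42.5% of all intergenic lncRNA genes. Beside MIR3142HG and MIR155HG, LINC00299, a lymphoid RNA next to ID2, had 0.86 and 0.97 over 499.6 kb, LINC01943 had 0.43 and 0.63, and LINC00861 had 0.01 and -0.21. At MIR3142HG the start had 0.68 and 0.95, the segment from 20 kb into the gene had 1.59 and 1.77, and 30 kb before the start the values were -2.28 and -1.24. MIR155HG and MIR3142HG therefore differ by more than 2 log2 units in both replicates, although both precede inflammatory microRNAs.

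Of 20 listed tumour-associated lncRNAs, 8 met the selection. Of these, 6 were above 0 in both replicates, against 48.1% of all intergenic lncRNA genes. Called were 5 (62.5%, against 42.5% of all intergenic lncRNA genes). PRNCR1 and CASC19 overlap and are counted separately here, in a list that is small. PRNCR1, in the 8q24 prostate cancer region, had 1.39 and 0.86, and CASC19, which overlaps it, had 0.93 and 0.86. LINC00460 had 0.98 and 1.27, and most of this 9.84-kb gene lay at the end of a segment of 101.2 kb in replicate 1 and 96.2 kb in replicate 2. BCAR4 had 0.51 and 0.63, SCHLAP1, a prostate cancer RNA, had 0.70 and 0.41, and LINC00511 had 0.12 and 0.41 without being called. UCA1, first described in bladder cancer, had -0.62 and -0.35, and NBAT1, a neuroblastoma RNA, had -0.23 and 0.24.

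The neural and pluripotency lncRNAs also had values on both sides of input. Of 15 neural symbols 8 met the selection; MIR9-1HG, MIR9-3HG and MIAT were called, while RMST, which acts in neurogenesis, had -0.77 and -0.82 and MIR124-2HG had -0.71 and -0.73. Of 10 pluripotency and endoderm symbols 4 met it. LINC01108 had 0.96 and 1.04 and was called, LINC-ROR, known from reprogramming, had -0.10 and -0.28, LINC00678 had -0.29 and -0.38, and LINC00458 had -0.68 and -0.77. The called share was 37.5% in the neural list and 25% in the pluripotency and endoderm list, against 42.5% of all intergenic lncRNA genes. Of these 12 genes 8 were below 0 in both replicates, against 43.9% of all intergenic lncRNA genes. None had a mean below -1, where 2.44% of all intergenic lncRNA genes lie. The lists are small, and their counts are descriptions.

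**Figure D5:**
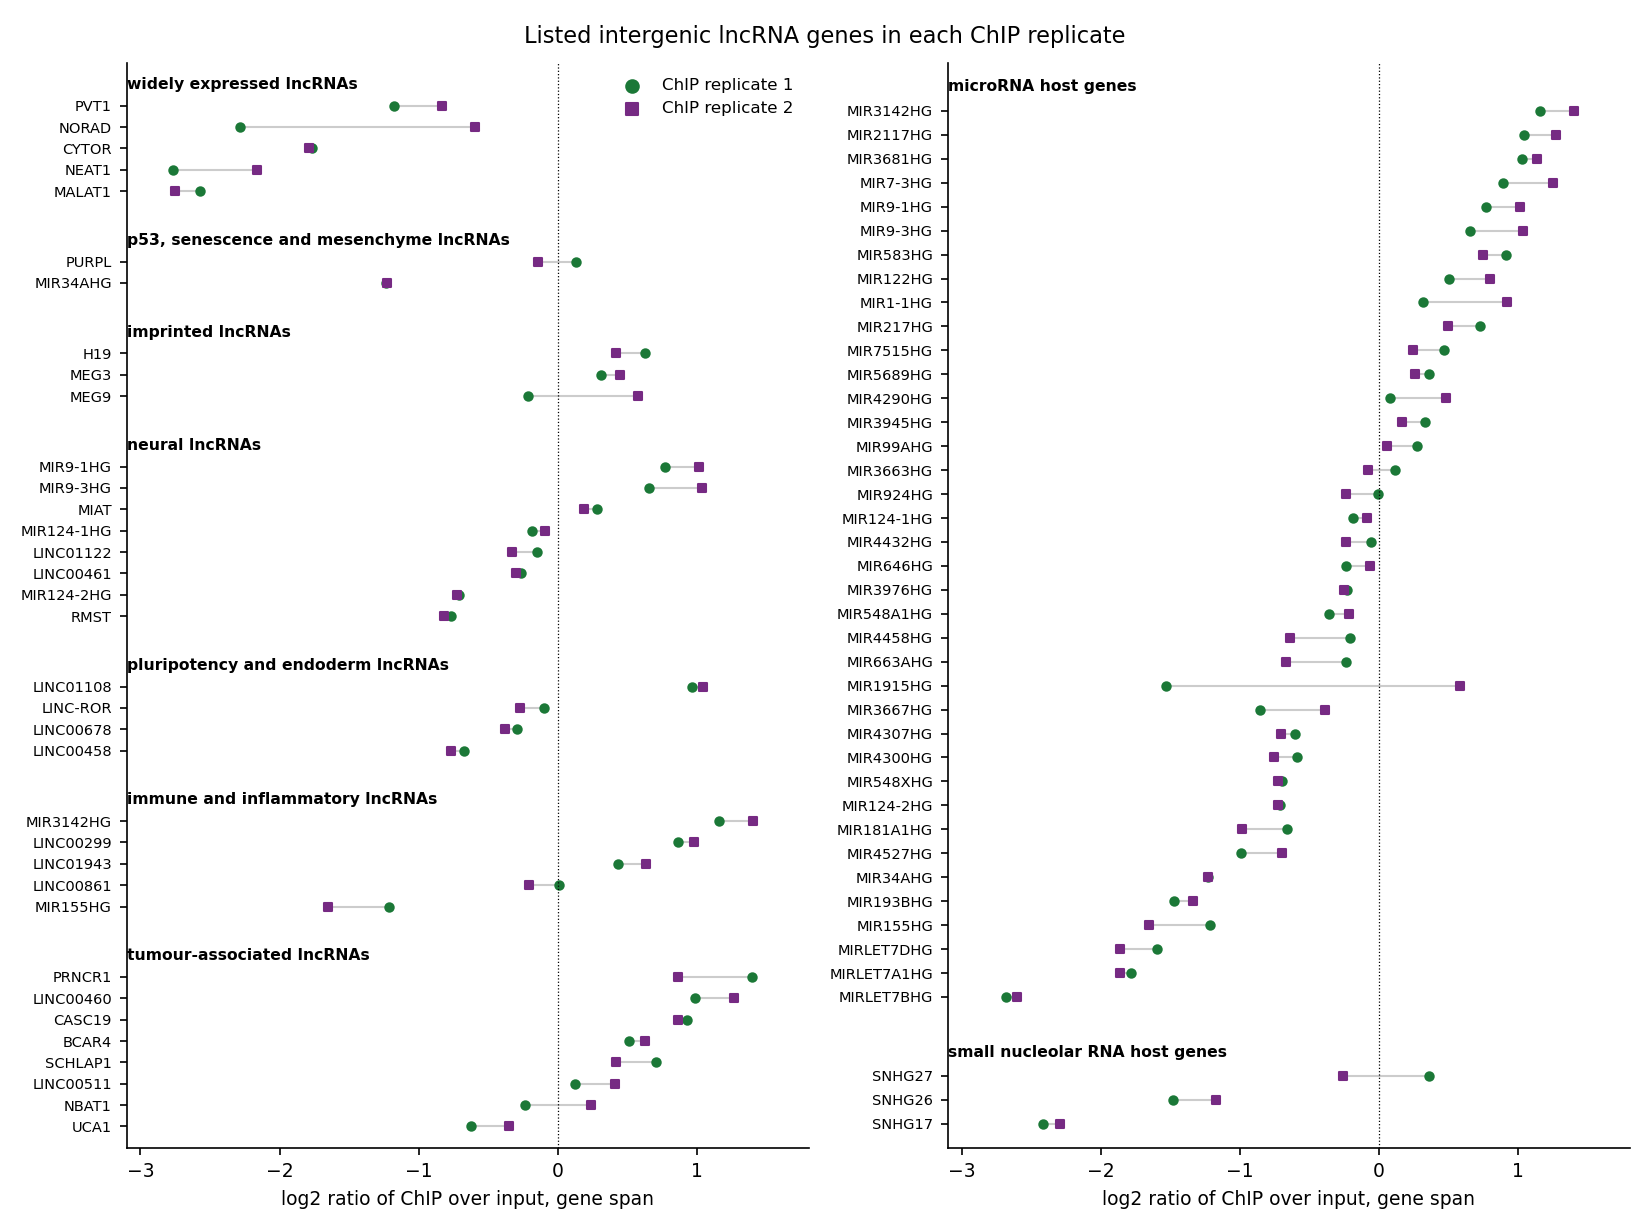
Log2 ratio of ChIP over input over the gene span for the listed intergenic lncRNA genes, with circles for replicate 1 and squares for replicate 2 joined by a line; genes in 2 lists appear in both. The 5 widely expressed lncRNAs lie below 0 in both replicates, the tumour-associated ones mostly lie above 0, and the microRNA hosts run from MIR3142HG at 1.16 and 1.40 to MIRLET7BHG at -2.68 and -2.60.

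Most of the 8 highest genes carry an ENSG identifier only. ENSG00000287666 (chr11:125991784-125997976, minus strand), 58.6 kb from CDON, had 2.19 and 2.43 (2.31 ± 0.17). ENSG00000261403, near TBC1D2B on chromosome 15, had 2.05 and 2.32, and LINC02520, 7.45 kb from CCDC167 on chromosome 6, had 1.81 and 2.19. PICSAR (chr21:46419122-46424642, minus strand), described in skin squamous carcinoma, had 1.84 and 2.16, in a segment of 22.2 and 21.1 kb. ENSG00000258820 lies 6.88 kb from FOS, an immediate early gene, and had 1.81 and 2.12. The other 3 of the top 8, ENSG00000288549, ENSG00000288874 and ENSG00000251532, had means of 1.97, 1.96 and 1.87; ENSG00000288549 and ENSG00000251532 both have LPCAT1 as the nearest coding gene and share a segment value of 1.89 in replicate 2. All 8 were enriched over 96.2% or more of their assayed bases. A mean above 1.5 was found in 65 of 4590 intergenic lncRNA genes and in 17 of 16290 protein-coding genes.

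The lowest 8 held MALAT1, TALAM1, MIRLET7BHG and NEAT1, with ZNF767P at -2.52 and -2.42, LINC00680 and ENSG00000283352 at -2.18 and -2.55 in 1 shared segment, and ENSG00000291136 at -2.45 and -2.27. ZNF767P is named as a pseudogene of a zinc finger gene, so reads may be shared with its relatives. Only 20 intergenic lncRNA genes (0.436%) had a mean below -2, against 18.7% of protein-coding genes. At the other side of the flank comparison, LINC00881 lay above its flanks by 1.45 and 1.39 and LINC00880, which overlaps it, by 1.33 and 1.18; these were picked after their values were seen.

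A few genes had a depleted start in an enriched body. The largest case was MIR9-1HG, a host of the neuronal microRNA miR-9 (chr1:156374042-156426555, minus strand), with -2.29 and -1.99 at the start and 0.77 and 1.01 over the span. The change lay just inside the start in both replicates. The depleted segment began at position 156426133 in replicate 1 and 156426252 in replicate 2. The body lay in a segment of 117 and 116 kb with 0.79 and 1.03. The depleted segment was 49.3 and 49.4 kb long. MEF2D, the nearest coding gene at 6.96 kb, had the same values as this start, so the 2 cannot be told apart. SOCAR had -2.05 and -1.78 at the start and 0.92 and 1.06 over the span, with the change at 112253434 and 112252813 on chromosome 2. The depleted segment at its start was split by gaps into 4 blocks in replicate 1 and 19 in replicate 2. LINC01943 (start -2.06 and -2.01), ENSG00000287402 (-1.20 and -1.43) and ENSG00000234139 (-2.29 and -0.59) were the next, and the last of these starts in the same segment as NORAD. LINC01943 overlaps CYTOR, so the doubt about copies holds there too. Whether it also holds for SOCAR was not checked.

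The opposite form, a start higher than the body, was led by RP9P, a pseudogene-named transcript whose parent gene RP9 is similar in sequence. Its start had 0.42 and 1.25, while its span had -1.58 and -1.60. The start, at position 32982788, lay near a boundary, at 32982624 in replicate 1 and 32981781 in replicate 2. Averaged over 5 kb centred on the start the values were -0.52 and 0.37, of opposite sign. ENSG00000291185 had 1.53 and 1.03 at the start and -0.23 and -0.29 over 225 kb, and ENSG00000228566 had 1.40 and 1.14 at the start and -0.25 and -0.35 over 1029 kb. ENSG00000259542 (start 0.90 and 1.25) and ENSG00000272917 (start 0.58 and 0.15) completed the 5. Over all genes with an assayed start and end, the start was above 0 and the end below it in both replicates in 100 of 4439, and the reverse held in 93.

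The longest genes were mixtures of segments. LINC02055, at 1233 kb the longest, had -0.69 and -0.63, and CCDC26, of 1049.6 kb, had 0.53 and 0.56 with 72.5% of its bases enriched in both replicates. LINC01320 had -0.53 and -0.61, ENSG00000228566 had -0.25 and -0.35, and ENSG00000229618 had 0.65 and 0.35. Each held 2 to 18 segments, so a single mean hides the variation within them.

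The replicates disagreed most at 5 genes of 5.40 to 11.3 kb, each of them lower in replicate 1. RENO1 had -2.31 and 1.00; the segment was 10.1 kb in replicate 1 and 82.8 kb in replicate 2. MIR1915HG had -1.53 and 0.58, EBLN3P -1.32 and 0.60, ENSG00000261327 -0.65 and 1.13, and NORAD -2.29 and -0.59. For NORAD the segment was 9.13 kb in replicate 1 and 19.9 kb in replicate 2. Replicate 1 was cut into 46978 segments and replicate 2 into 25598, so the segments of replicate 1 are shorter on average. At 4 of these 5 genes the replicates had opposite signs, and their means describe neither replicate.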

How the data were processed

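MacroH2A1 ChIP-seq was done in IMR90 cells with 2 ChIP and 2 input samples, grouped by their titles. Per the submitters' processing notes CASAVA 1.7 and hg19 were used; the aligner, duplicate handling, segmentation program and scaling were not given in the sources used here. For each ChIP replicate, unpooled, the authors deposited segments that tile the chromosomes, each with a log2 ratio (ChIP over input) and a −log10 p-value. What this p-value compares is not known here. Some segments below input also carried high values, such as 5.52 at a log2 ratio of -0.99 beside NORAD in replicate 1. Such segments were not called, since a log2 ratio above 0 was also required. The base of the logarithm was inferred, since 2 raised to the deposited log2 values averaged 0.988 and 0.976 over assayed autosomal bases. Blocks inside a segment are split at gaps of over 1000 bases, and gaps were left out. Read depth is unknown, so no counting intervals are given, and values are relative within a library. Short features inside a segment cannot be seen.

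Genes came from GENCODE release 44 mapped to GRCh37, the same build. The value of a gene was the length-weighted mean over its bases in blocks, and the start value that of the block holding the annotated 5′ end. The planned design allowed for called peaks; as the files are segmentations, segments with a log2 ratio above 0 and −log10 p of 2 or more were taken as enriched. Flanks had the length of the gene and lay outside coding genes. Because an exact test over 2 replicates cannot pass a threshold, no test was run. Python 3.11.15, numpy 2.4.6, scipy 1.17.1 and matplotlib 3.10.9 were used, and the interval code was tested on simulated data. The genes, the 9 lists and the alternatives were chosen with earlier results of these data known. Named genes are the 8 highest and 8 lowest means, the 2 highest and 2 lowest of each list, the 5 largest start differences each way, the 5 longest and the 5 with the largest replicate difference, plus others said to be chosen later or given to complete a list. Alternatives concerned distance, span, assayed share, overlap, gaps, thresholds, the start window, length classes, chromosomes and single replicates.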

Additional observations from a re-analysis of the deposited data

How the results depend on the processing

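The median log2 ratio over intergenic lncRNA genes lies so close to 0 that its sign depends on which genes are counted. It was 0.08, and turned to -0.16 for genes at least 50 kb from coding genes, to -0.0688 for spans of 20 kb or more, and to -0.00418 as a length-weighted mean over all their bases; these settings keep fewer or weight longer genes, and the cause was not tested further. It was 0.0827 with overlapping genes merged into 3780 loci, 0.12 with 90% of the span assayed, 0.13 for genes with a symbol and 0.10 as a mean, and leaving out a replicate gave 0.0638 to 0.0692. The called share of 42.5% lay between 30.4% and 48.2% under the other settings run, except 15.7% when only the stronger 50% of enriched segments counted; without a replicate it was 46.6% to 47.5%. The start value of 0.0815 was 0.0805 over a 5-kb window and 0.0753 to 0.0754 without a replicate. The difference of 1.06 from protein-coding genes kept its sign throughout: 1.35 at 5 to 20 kb, 1.29 at 20 to 50 kb, 1.08 at 50 to 100 kb, 0.44 above 100 kb, 1.05 within chromosomes, and 0.97 to 1.10 without a replicate. No paired analysis was possible because the inputs, which share replicate numbers with the ChIP samples, enter only through the deposited ratios; differences between gene classes were taken within each replicate. Segment length limits what can be seen of short genes, and read depth is unknown.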
